A study of Sus scrofa with 18 samples.

Results

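The genes described here are 9 genes through which cells receive and limit an interferon signal: the receptor genes IFNAR1, IFNGR1 and IFNGR2, the kinase genes JAK1, JAK2 and TYK2, the transcription factor genes STAT2 and STAT3, and the inhibitor gene SOCS1. They were listed by name, placed at their RefSeq positions on the pig assembly Sscrofa11.1, and are 9 of the 28210 RefSeq genes on the named chromosomes. Their chromatin was read in the myometrium of Yorkshire gilts as CUT&Tag peaks of H3K4me3, a histone mark of active promoters, and H3K27ac, a mark of active promoters and enhancers. In CUT&Tag an antibody to the mark guides the transposase Tn5, fused to protein A, which cuts and tags the DNA beside it. All tissue came from the mesometrial side of the uterus, where the supporting ligament attaches. GD15M_CM is the circular muscle and GD15M_LM the longitudinal muscle of naturally mated gilts on day 15 of pregnancy, and CD15M_CM is the circular muscle of gilts on day 15 of the oestrous cycle, which carried no conceptuses.

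Each group had 2 gilts, and with both marks and an IgG control the series holds 18 libraries. The authors pooled both gilts before they called peaks, so each mark and group has 1 peak list, no value per gilt can be had, and no difference below has a replicate check, an error or a test. The 3 H3K4me3 lists hold 31910 to 36331 peaks and the 3 H3K27ac lists 57010 to 82037, and read depth is not part of them. All 8 smooth muscle markers had peaks of both marks in all 3 groups. In single lists, 60.0% to 64.9% of all RefSeq genes had a peak. The T cell, endothelium and uterine epithelium markers that could be placed also all had H3K4me3 peaks in each group. For that mark the count therefore does not tell muscle from other cells. The tissue was bulk muscle, in which a mark carried by fewer cells cannot be told apart from less of the mark per cell.

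Interferons bind paired receptor chains at the cell surface, and the receptors activate Janus kinases bound to their inner side. The kinases phosphorylate STAT proteins, which enter the nucleus and switch on interferon-stimulated genes. SOCS1 is induced by the same signal and blocks the kinases. Pig conceptuses secrete interferon gamma and interferon delta around the time of implantation, and the uterine wall is known to respond to them.

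A gene was given every peak between 3 kb before and 3 kb after it, and its leading peak is the peak of highest fold enrichment over IgG. Fold enrichments of different lists are not on a common scale. Over all genes with a peak in both lists, the median log2 ratio of GD15M_CM to CD15M_CM was -0.33 for H3K4me3 and 0.01 for H3K27ac. A peak is therefore also given as a percentile, the share of peaks of its own list with the same or a lower fold enrichment, and a difference of at least 10 percentile points between lists is counted as a difference of size. Values in a row are in the order GD15M_CM, GD15M_LM and CD15M_CM unless the groups are named.

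All 9 genes had a peak of both marks in every group. With peaks limited to a fold enrichment of at least 5 and a −log10 p of at least 10, all 9 still had an H3K4me3 peak in each group, and 6 had an H3K27ac peak in GD15M_CM, 8 in GD15M_LM and 6 in CD15M_CM. Of all RefSeq genes, 60.0%, 61.0% and 61.7% had an H3K4me3 peak in GD15M_CM, GD15M_LM and CD15M_CM, and 62.9%, 61.3% and 64.9% had an H3K27ac peak. Of protein-coding genes alone, 73.7%, 74.6% and 75.4% had an H3K4me3 peak and 73.9%, 73.1% and 75.8% an H3K27ac peak. Longer genes had longer windows, and no value was adjusted for this. Among the genes that had a peak, the 9 stood only moderately high. Their leading H3K4me3 peak lay above the median of such genes for 5, 5 and 7 of the 9, and their leading H3K27ac peak for 6, 8 and 6. The median percentile of the 9 genes was 82.4, 84.6 and 88.3 for H3K4me3 and 88.5, 93.3 and 92.7 for H3K27ac. JAK1 ranked highest for H3K4me3 in GD15M_CM and TYK2 in the other lists, and STAT2 ranked lowest for H3K4me3 in each list.

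**Figure D1:**
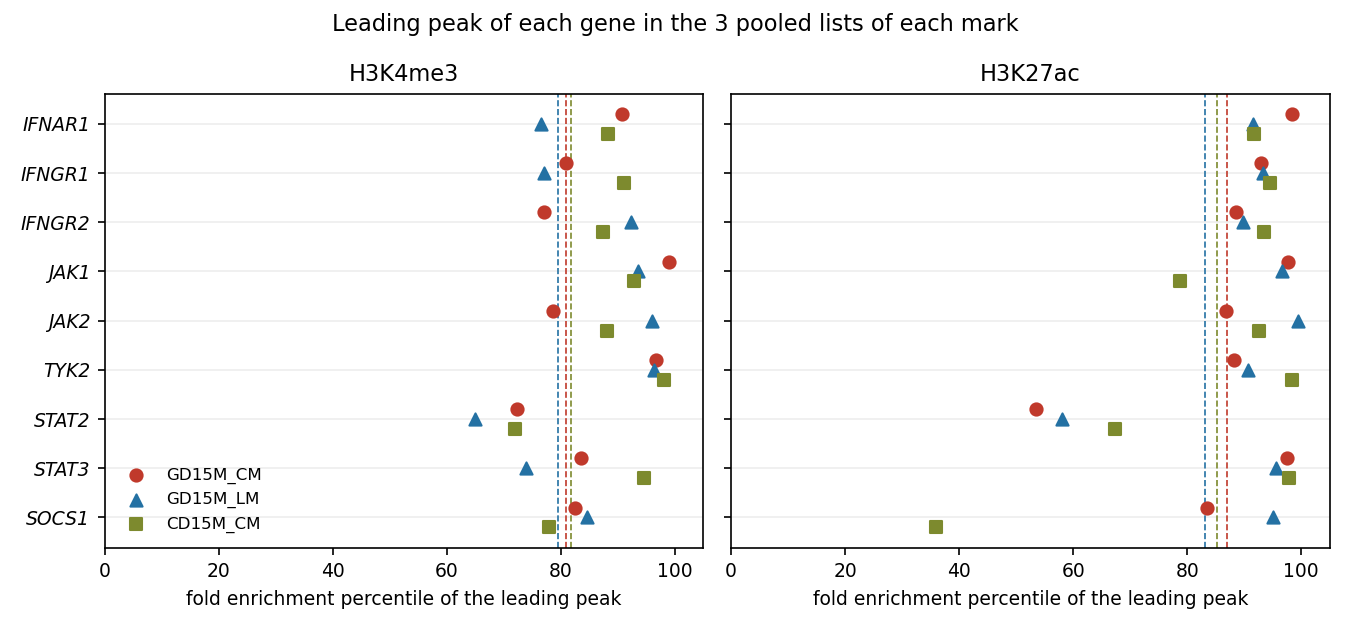
Percentile of the leading peak (x axis, 0 to 100, by fold enrichment among the peaks of that list) for each of the 9 genes, with 1 point per pooled list: red circles GD15M_CM, blue triangles GD15M_LM, green squares CD15M_CM. Dashed lines in the same colours give the median of all genes with a peak. The points under 70 are those of STAT2 for H3K27ac, STAT2 in GD15M_LM for H3K4me3 at 65.0, and SOCS1 in CD15M_CM for H3K27ac at 35.9.

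The receptor genes differed from each other in the group where they ranked highest. IFNAR1, at chr13:196925731-196951398, encodes a chain of the type I interferon receptor. Its leading H3K4me3 peak covered the lower-coordinate end of the gene and had a fold enrichment of 20.8 in GD15M_CM, 18.0 in GD15M_LM and 23.4 in CD15M_CM, or percentiles 90.8, 76.5 and 88.3. The longitudinal muscle was the low group for this peak, 14.2 points under GD15M_CM. The H3K27ac peak at the same end had fold enrichments of 7.61, 6.52 and 5.62 and percentiles 98.4, 91.5 and 91.8, so that GD15M_CM was the high group.

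H3K27ac inside IFNAR1 was called at different places in the groups. GD15M_CM had 6 H3K27ac peaks in the window, GD15M_LM 1 and CD15M_CM 3. In GD15M_CM alone, peaks were called at 2.97 to 3.76 kb and at 5.41 to 5.71 kb from the lower end, both at percentile 80.5, and at 14.3 and 16.6 kb at percentiles 58.6 and 52.7. CD15M_CM had a peak of its own at 10.1 to 11.2 kb, at percentile 35.5. A small peak 2.5 to 2.9 kb outside the lower end was shared by both circular muscle lists, at percentiles 94.3 and 68.1. The H3K4me3 peak of GD15M_CM reached further into the gene as well, at 3385 bp against 2410 and 2389 bp.

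IFNGR2, at chr13:197007303-197035604, encodes the signalling chain of the interferon gamma receptor and had the opposite H3K4me3 order. The fold enrichment at its lower end was 14.3 in GD15M_CM, 27.3 in GD15M_LM and 22.8 in CD15M_CM, or percentiles 77.1, 92.3 and 87.3. GD15M_CM was thus the low group, by 15.2 and 10.2 points. H3K27ac at this end was closer, at percentiles 88.5, 89.7 and 93.4. Inside the gene, 2 H3K27ac regions that had no H3K4me3 peak ranked highest in the cyclic muscle. The region at 4.2 to 6.4 kb had percentiles 5.98, 30.0 and 70.4, and a region 960 bp long further inside had 39.8, 4.45 and 83.7.

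IFNGR1, at chr1:27037151-27061095, encodes the ligand-binding chain of the interferon gamma receptor. It had 1 H3K4me3 peak in each list, of 3469 to 3655 bp, with fold enrichments of 15.9, 18.2 and 25.6 and percentiles 80.9, 77.0 and 91.0. Here CD15M_CM was the high group, 10.2 points over GD15M_CM. Its leading H3K27ac peak ranked at 92.9, 93.3 and 94.5, the narrowest range of any gene and mark here (1.57 points).

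IFNAR1 and IFNGR2 lie in a row of 4 receptor genes on chromosome 13, from 196765915 to 197035604, a span of 269.7 kb with no other RefSeq gene inside it. The order is IFNAR2, the other type I chain, then IL10RB, a chain shared by interleukin 10 and interferon lambda receptors, then IFNAR1 and IFNGR2. From the first to the last gene, the H3K4me3 percentile of GD15M_CM minus that of GD15M_LM was 26.5, 21.1, 14.2 and -15.2. The longitudinal muscle was therefore lower at the first 3 genes and higher at the last. Against CD15M_CM the same H3K4me3 differences were 0.05, 3.48, 2.52 and -10.2.

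**Figure D2:**
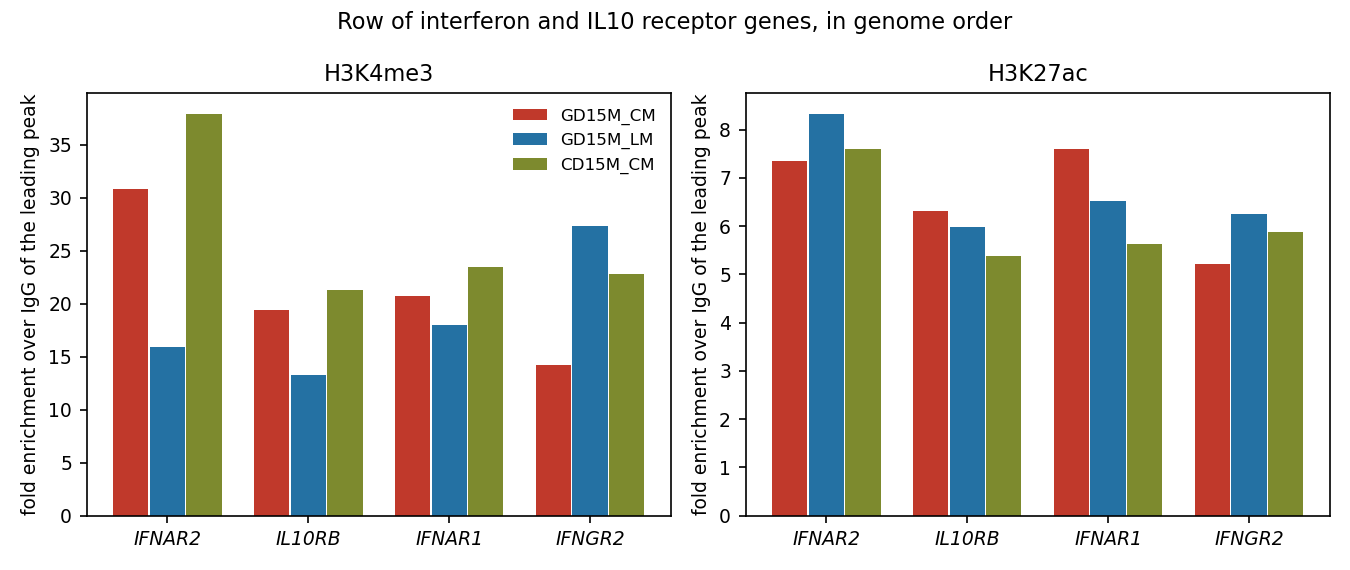
Fold enrichment over IgG of the leading peak (y axis, from 0) at the 4 receptor genes of chromosome 13 in genome order, 1 bar per pooled list and no error bars because no value per gilt was available. In the H3K4me3 panel GD15M_LM is the shortest bar at IFNAR2, IL10RB and IFNAR1 and the tallest at IFNGR2, where it reaches 27.3.

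Among the kinase genes, JAK2 ranked highest in the longitudinal muscle for both marks, while the order of the groups at JAK1 depended on the place. JAK1, at chr6:147320288-147567188, encodes a kinase used by both interferon receptor types. Its lower end carried a broad H3K4me3 peak with fold enrichments of 30.8 in GD15M_CM, 20.8 in GD15M_LM and 27.2 in CD15M_CM, or percentiles 98.9, 82.0 and 92.8. H3K27ac in the same place had fold enrichments of 7.18, 7.58 and 4.44 and percentiles 97.7, 96.2 and 77.6. Both groups from pregnant gilts were high for this H3K27ac region and the cyclic muscle was low.

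JAK1 held 2 further places with both marks in all 3 groups, well inside the gene. At 73.4 to 76.3 kb from the lower end, H3K4me3 ranked at 71.9, 76.4 and 92.5 and H3K27ac, at 74.1 to 76.0 kb, at 73.8, 95.2 and 48.9. In this place CD15M_CM was the highest for H3K4me3 and the lowest for H3K27ac. At 107.4 to 111.0 kb, H3K4me3 ranked at 91.5, 93.6 and 84.3, and the main H3K27ac region there at 88.3, 96.6 and 78.7. The leading JAK1 peak of GD15M_LM lay here for both marks, as did the leading H3K27ac peak of CD15M_CM, so the leading peaks of JAK1 are not always the same place. The difference between the leading H3K27ac peaks of GD15M_CM and CD15M_CM was 18.9 points, although these peaks lay in different places. The higher end of JAK1 overlaps the neighbouring gene RAVER2, and no peak in the JAK1 window was called within 3 kb of that end.

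**Figure D3:**
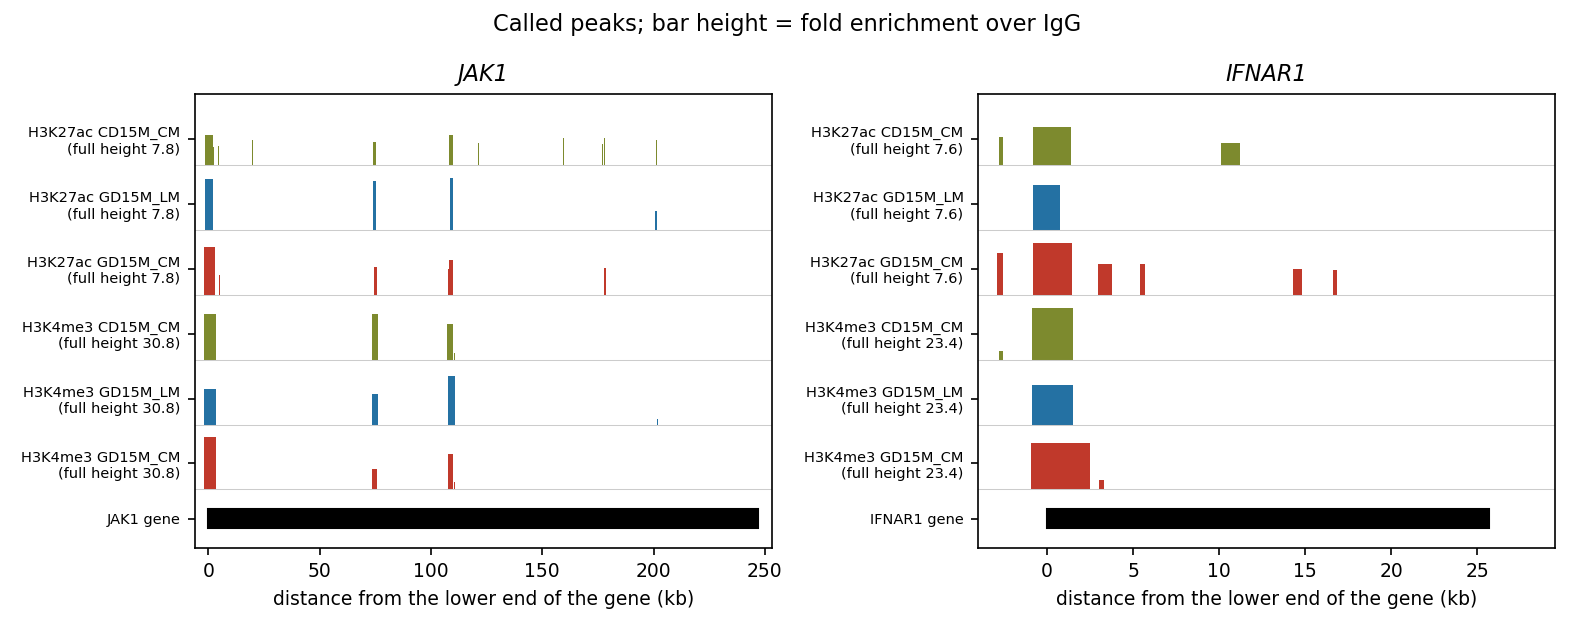
Called peaks at JAK1 (left) and IFNAR1 (right) in the 6 pooled lists. The x axis is the distance in kb from the lower-coordinate end of the gene (black bar), each box spans a peak, and its height is the fold enrichment, scaled within each mark to the value in brackets. JAK1 shows 3 places with both marks in every group, and IFNAR1 shows internal H3K27ac boxes at 2.97 to 5.71 kb in GD15M_CM only.

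JAK2, at chr1:216849744-217002310, encodes the kinase bound to the interferon gamma receptor chain IFNGR2. Its H3K4me3 peak covered the higher-coordinate end, with similar lengths of 4079, 4253 and 4009 bp. The fold enrichment was 15.0 in GD15M_CM, 31.3 in GD15M_LM and 23.4 in CD15M_CM, or percentiles 78.7, 95.9 and 88.1. GD15M_LM was the high group and GD15M_CM the low one, 17.2 points apart. H3K27ac at the same end was high in the longitudinal muscle as well, with fold enrichments of 4.83, 9.90 and 4.13 and percentiles 84.4, 99.4 and 70.4. In both circular muscle lists the leading H3K27ac peak was instead the neighbouring region 149.6 to 151.4 kb from the lower end, at percentiles 86.8, 79.0 and 92.7. The log2 ratio of the leading H3K27ac peaks of GD15M_CM and GD15M_LM was -0.97, and only 3.45% of all genes with a peak in both lists had a ratio as low or lower.

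TYK2, at chr2:69157774-69183555, encodes the kinase bound to IFNAR1. It was the steadiest of the 9 genes for both marks together and had the highest H3K4me3 percentiles after JAK1 in GD15M_CM and the highest in the other lists, 96.6, 96.4 and 98.0. The peak was short for its height, at 1990, 1785 and 1921 bp. Its only H3K27ac region covered the same higher-coordinate end, with fold enrichments of 5.16, 6.38 and 7.35 and percentiles 88.2, 90.6 and 98.3. CD15M_CM was the high group for this region, by 10.1 points over GD15M_CM.

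The STAT genes had their marks in different arrangements. STAT3, at chr12:20407316-20471091, encodes a STAT used by many cytokines besides interferons. Its H3K4me3 peak covered the lower end, with fold enrichments of 17.1, 16.6 and 29.0 and percentiles 83.6, 73.9 and 94.5, so that CD15M_CM was the high group. H3K27ac was not strongest there, at percentiles 78.7, 76.6 and 59.3. It was stronger at 6.2 to 7.7 kb inside the gene, at 97.4, 90.9 and 97.8, where H3K4me3 reached only 65.6, 48.6 and 60.1. The cyclic muscle was thus the highest of the 3 for H3K4me3 at the lower end of STAT3 and the lowest for H3K27ac.

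A second strong H3K27ac region of the STAT3 window lay 65.7 to 67.9 kb from the lower end, outside the gene and within 3 kb of STAT5A, so it cannot be given to either gene. It ranked at 88.3, 95.6 and 95.1, and it was the leading H3K27ac peak of the window in GD15M_LM. A further H3K27ac region at 24.4 to 25.1 kb ranked at 86.4, 13.0 and 57.6, with the high value in GD15M_CM.

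STAT2, at chr5:21733030-21748960, encodes a transcription factor of the response to type I interferons and was the weakest of the 9 genes for H3K4me3. Its leading H3K4me3 peak covered the higher-coordinate end, with fold enrichments of 12.2, 11.9 and 13.8 and percentiles 72.4, 65.0 and 71.9. H3K27ac at this end was weak in all groups, at percentiles 42.9, 58.1 and 44.4. The leading H3K27ac peak of the circular muscle lists was a short internal peak of 467 bp in GD15M_CM and 303 bp in CD15M_CM, which was not called in GD15M_LM. The 13.9 points by which STAT2 was lower in GD15M_CM than in CD15M_CM for H3K27ac rest on this short peak. At the gene end the difference was small. The lower end of STAT2 overlaps IL23A and lies 2.5 kb from PAN2, and the weak peaks there may belong to any of them.

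SOCS1, at chr3:31879143-31883041, encodes the inhibitor of the Janus kinases and varied more over the 6 lists than any other of the 9 genes. The sum over both marks of its highest minus its lowest percentile was 65.8, against 29.9 for JAK2, the next gene. Nearly all of this came from H3K27ac. The leading H3K27ac peak had a fold enrichment of 4.74 in GD15M_CM, 7.22 in GD15M_LM and 3.16 in CD15M_CM, or percentiles 83.5, 95.0 and 35.9. The cyclic muscle was the low group, and the longitudinal muscle of pregnant gilts was the high group. The 47.6 points between GD15M_CM and CD15M_CM correspond to a log2 ratio of 0.58. The median fold enrichment of all H3K27ac peaks was 3.49 and 3.53 in these lists, between the 2 values of SOCS1, where a small change in fold enrichment is a large change in percentile. Of all genes with a peak in both lists, 90.2% had a ratio as low or lower. JAK1, at a log2 ratio of 0.67, exceeded SOCS1 by this measure.

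The H3K4me3 peak of SOCS1 differed little in rank, at percentiles 82.4, 84.6 and 77.9, and with fold enrichments of 16.6, 22.3 and 17.2. Its length differed more. In group order, the leading H3K4me3 peak measured 6059, 4419 and 3486 bp and the leading H3K27ac peak 5596, 2642 and 2380 bp. Both peaks of GD15M_CM spanned sequence that the other lists covered with several separate peaks. Summed over the separate peaks of the same region, the covered length was 6059, 5242 and 4067 bp for H3K4me3 and 5596, 3765 and 3389 bp for H3K27ac, so the order held with a smaller gap. Beyond the higher end, GD15M_CM alone had 2 further peaks of each mark, which included an H3K27ac peak of 1090 bp at percentile 51.8. SOCS1 thus had its highest H3K27ac in GD15M_LM and its widest in GD15M_CM.

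**Figure D4:**
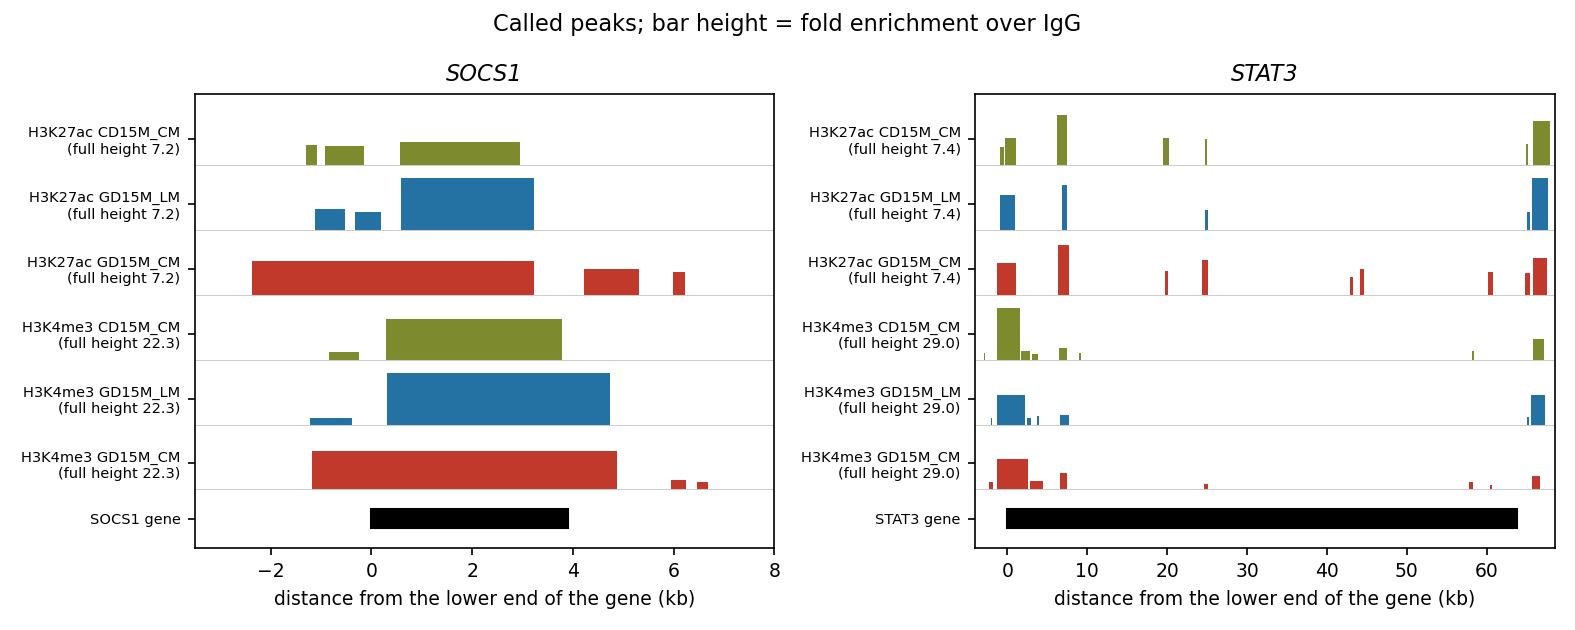
Called peaks at SOCS1 (left) and STAT3 (right) in the 6 pooled lists, with distance in kb from the lower-coordinate end of the gene on the x axis and box height as fold enrichment, scaled within each mark to the value in brackets. At SOCS1 the GD15M_CM boxes are the longest for both marks, 6059 and 5596 bp, and GD15M_LM has the tallest H3K27ac box. At STAT3 the tallest H3K4me3 box covers the lower end in CD15M_CM.

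Markers of other cell types differed between the groups as well. Of 7 T cell markers that could be placed, 5 had an H3K27ac peak in GD15M_CM, 3 in GD15M_LM and 3 in CD15M_CM, and their percentiles summed to 307, 119 and 102. CD3G (67.8) and CD2 (65.4) had an H3K27ac peak in GD15M_CM only, and CD3D and CD3E had none in any list. CD247 (74.4, 27.2 and 21.9), LCK (65.0, 63.6 and 52.0) and CD8A (34.6, 28.1 and 28.2) had one in each list. The T cell markers all had H3K4me3 peaks in each list, and their H3K4me3 percentiles summed to 475, 412 and 402. CD3D and CD3G had the same H3K4me3 percentiles (68.0, 61.7 and 52.6), so the same peak may be counted for both. Uterine epithelium markers had median percentiles of 79.4, 59.0 and 81.5 for H3K4me3 and 75.6, 13.9 and 68.3 for H3K27ac, and smooth muscle markers had median H3K4me3 percentiles of 74.7, 90.2 and 87.3. JAK2 and IFNGR2 had the H3K4me3 order of the smooth muscle medians. Of the single markers DES, MYL9, MYH11 and TAGLN had this order, and ACTA2, SMTN, CNN1 and ACTG2 did not. For H3K27ac the smooth muscle medians were 85.9, 89.0 and 94.2, highest in CD15M_CM. IFNAR1, IFNGR1, STAT2 and STAT3 were, like the epithelium medians, lowest in GD15M_LM for H3K4me3. TYK2 was lowest there by only 0.23 points. JAK1 was lowest there at its lower end (98.9, 82.0 and 92.8), though not by its leading peaks, which lay in different places. The part of cell makeup in any of these values was not tested.

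Pregnant and cyclic circular muscle can be compared over all 9 genes. For H3K4me3, 4 genes ranked higher in GD15M_CM and 5 in CD15M_CM, where 40.7% of all genes with a peak in either list ranked higher in GD15M_CM. None of the 9 was higher in GD15M_CM by at least 10 points, against 12.4% of all genes, and IFNGR1, IFNGR2 and STAT3 were lower by that much, against 23.9%. All 3 lay within 1 point of the limit, and none was past it once the difference was taken relative to the median of all genes, which was -2.13 points. For H3K27ac, 3 genes ranked higher in GD15M_CM, where the background was 49.2%. SOCS1 and JAK1 were higher by at least 10 points, against 25.5% of all genes, and STAT2 and TYK2 were lower, against 27.4%. With 2 of 9 genes in each direction these shares are near the background and say nothing particular about the 9 genes. The median difference over the 9 genes was -1.41 points for H3K4me3 and -1.57 for H3K27ac, against -2.13 and -0.16 over all genes.

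The muscle layers of pregnant gilts were compared in the same way, with the same GD15M_CM lists, so these values are not independent of those above. For H3K4me3, 6 genes ranked higher in GD15M_CM and 3 in GD15M_LM, against 51.7% of all genes higher in GD15M_CM. IFNAR1 was higher in GD15M_CM by at least 10 points, against 20.9% of all genes, and JAK2 and IFNGR2 were lower, against 20.2%. For H3K27ac, 3 genes ranked higher in GD15M_CM and 6 in GD15M_LM, against 57.2% of all genes higher in GD15M_CM. None of the 9 was higher by at least 10 points, where 33.8% of all genes were, and JAK2 and SOCS1 were lower, where 22.6% were. Relative to the median of all genes, 2.30 points, 1 gene was higher in GD15M_CM and 8 in GD15M_LM.

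**Figure D5:**
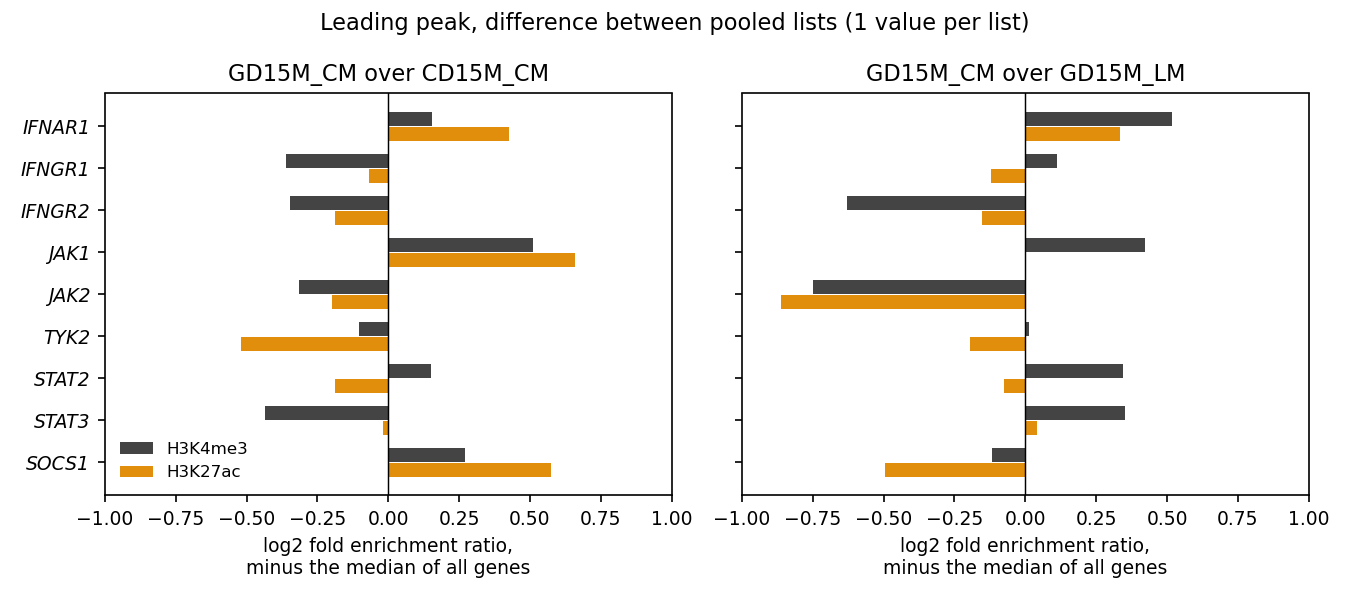
Log2 ratio of the fold enrichment of the leading peaks, GD15M_CM over CD15M_CM (left) and over GD15M_LM (right), after subtraction of the median over all genes, with H3K4me3 in grey and H3K27ac in orange. Each bar comes from 1 pooled list per group and has no error. On the left SOCS1 and JAK1 have the longest bars to the right for H3K27ac, and on the right JAK2 has the longest bars to the left for both marks.

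Peak length was compared as well. The leading H3K4me3 peak was longer in GD15M_CM than in CD15M_CM for 7 of the 9 genes, and this was so for 27.4% of all genes. For JAK2, JAK1 and TYK2 among the 7 the peak was longer by a factor of only 1.02 to 1.04. When the lengths of all peaks in a window were summed, GD15M_CM was longer for 4 of the 9 genes, against 26.7% of all genes. The leading peak was longer in GD15M_CM than in GD15M_LM for 6 of 9, against 35.3% of all genes, and the summed length for 5 of 9, against 38.9%. For H3K27ac the leading peak was longer in GD15M_CM for 5 of 9 genes in both comparisons, against 48.2% and 64.0% of all genes. The leading H3K27ac peaks of JAK1 lay in different places in both comparisons, as did those of JAK2, STAT2 and STAT3 against GD15M_LM. Against GD15M_LM this was also so for the leading H3K4me3 peaks of JAK1. For these genes the counts do not compare the length of the same peak. The summed H3K27ac length was longer for 4 of 9 against CD15M_CM and 8 of 9 against GD15M_LM, where 45.6% and 73.4% of all genes were.

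Regions called in every group held stronger peaks than regions of 1 group. Peaks of the 9 genes fell into 35 H3K4me3 regions, of which 14 were called in all 3 groups and 16 in 1 group, and into 50 H3K27ac regions, of which 18 were called in all 3 groups and 22 in 1. Regions in all 3 groups made up 40% and those of 1 group 45.7% for H3K4me3, against 45.9% and 38.1% over all genes. For H3K27ac the shares were 36% and 44%, against 33.3% and 45.8%, so the sharing was near the background for both marks. The highest percentile of a region had a median of 91.7 for H3K4me3 regions called in all groups and 26.4 for those of 1 group. For H3K27ac these medians were 94.7 and 52.3. Values of regions called in all groups are the highest of 3, and those of regions of 1 group rest on 1 list. A region counts as shared only if it passed the calling cutoff in every list, so a gap in this direction was built in. Of the 22 H3K27ac regions of 1 group, 14 belonged to GD15M_CM, 8 to CD15M_CM and 0 to GD15M_LM, whose list is the shortest. Over all genes these groups held 46.3%, 42.4% and 11.3% of such regions. Of the 50 H3K27ac regions 33 lay inside a gene, and 22 had no H3K4me3 peak over them.

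Other genes of the pathway were read in the same way. Of 29 other JAK-STAT pathway genes that could be placed, 16 had a higher H3K4me3 percentile in GD15M_CM than in CD15M_CM and 13 a lower one. Over all genes with a peak in either list, 40.7% were higher in GD15M_CM. Pathway genes higher by at least 10 points included IL6R (22.8 points), IRF9 (16.2) and JAK3 (15.0). SOCS4 (-14.3), OSMR (-12.7) and PTPN11 (-12.3) were lower. By at least 10 points, 13.8% of the 29 were higher, against 12.4% of all genes, and 10.3% were lower, against 23.9%. The share that was higher was thus near the background. IRF9 encodes the DNA-binding partner of STAT2, and STAT2 itself differed by 0.47 points.

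Between the muscle layers, 20 of the 29 genes had a higher H3K4me3 percentile in GD15M_CM and 9 a lower one, where 51.7% of all genes were higher. IFNAR2 (26.5 points), IRF9 (23.1), IL10RB (21.1), JAK3 (18.5), PTPN2 (18.5), IFNLR1 (17.8), STAT5B (17.1), PTPN6 (12.5) and STAT4 (11.2) were higher by at least 10 points and OSMR (-16.3), a receptor chain for oncostatin M, was lower. The genes higher by that much were 31.0% of the 29, against 20.9% of all genes. The gene lower by that much was 3.45% of the 29, against 20.2% of all genes. The median difference of the 29 genes was 5.88 points, against 3.85 for the 9 genes and 0.40 for all genes. For H3K27ac, 7 of the 29 were higher and 6 lower by at least 10 points against CD15M_CM, where 25.5% and 27.4% of all genes were. Against GD15M_LM 10 were higher and 3 lower, where 33.8% and 22.6% of all genes were. The shares of the 29 that were higher, 24.1% and 34.5%, were thus near the background.

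Values of genes downstream of the pathway serve as points of reference. IRF1, an interferon-induced transcription factor, ranked at 95.9, 96.1 and 88.9 for H3K4me3, and NLRC5, a regulator of MHC class I genes, at 97.3, 95.0 and 89.6. GBP1, which encodes a guanylate-binding protein, ranked at 96.8, 90.7 and 77.9. Both groups from pregnant gilts were above CD15M_CM in each of these H3K4me3 values. The paper names these genes among those with raised H3K4me3 in GD15M_CM over CD15M_CM, from the same libraries. Their H3K4me3 order between those groups was thus known beforehand and is no independent result. For H3K27ac the percentiles were 97.1, 98.7 and 91.9 at IRF1, 98.7, 96.8 and 82.7 at NLRC5, and 95.3, 93.7 and 96.0 at GBP1, where CD15M_CM was the highest. Among 21 antiviral interferon-stimulated genes, 18 had a higher H3K27ac percentile in GD15M_CM than in CD15M_CM, with a median difference of 8.53 points, against 49.2% of all genes. For H3K4me3 7 of the 21 were higher, or 33.3%, near the 40.7% of all genes. Of 9 interferon regulatory factor genes, 7 had a higher H3K4me3 percentile in GD15M_CM, with a median of 4.47 points.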

How the data were processed

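CUT&Tag libraries of H3K4me3, H3K27ac and IgG from 2 gilts per group were mapped by the authors to Sus scrofa 11.1 with BWA 0.7.17-r1188. They removed duplicates and reads of mapping quality under 25 with SAMtools 1.9 and Picard 2.8.3, pooled both gilts and called peaks with MACS2 2.2.6. Each deposited list gives a peak's position and length in bp, its fold enrichment (a ratio over IgG, scaling not stated) and the −log10 of its p-value, a column with an unreadable header identified from its place and values. A −log10 q column was not used. Depth is not in the lists, so no interval could be given.

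Peaks were overlapped by at least 1 bp with RefSeq genes plus 3 kb on each side. Strand and promoter sequences were not used here, so gene ends are named by coordinate, the window around a transcription start became 3 kb around either gene end, and the planned motif search was not run. Joined over the groups, overlapping peaks of a mark form a region. LIFR, RIGI, IFNL1, IFNL3, ZAP70 and MSLN could not be placed.

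The members and lists were chosen with earlier results of these data known. Named were every member, other pathway genes that differed by at least 10 points for H3K4me3, IRF1, GBP1 and NLRC5, and the 3 protein-coding genes nearest to the most variable member over the 6 percentiles. A gene that this rule also named is not reported here. STAT5A, IL23A, PAN2 and RAVER2 were named as neighbours, and interferon genes and single markers after their values were seen. Python 3.11.15, pandas 2.3.3, NumPy 2.4.6, SciPy 1.17.1 and Matplotlib 3.10.9 were used, and the overlap code was tested on simulated data.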

Additional observations from a re-analysis of the deposited data

How the results depend on the processing

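The counts of members ranked higher and of members past 10 points were recomputed under 7 alternatives set at the start and up to 3 added after seeing the data (rank among genes, and centring of the percentile difference or of the log2 ratio on the median of all genes). Counts of members with a peak had 6 alternatives, and counts of lengths, regions and other gene lists were not recomputed. No difference of at least 10 points turned its direction, although SOCS1 and STAT2 came to 0 for H3K27ac under the strict threshold, and STAT2 for H3K4me3 against CD15M_CM, 0.47 points as reported, was -25.6 with close peaks joined. The members that differed by at least 10 points between GD15M_CM and CD15M_CM for H3K4me3 were 3 as reported, 6 under the strict threshold (fold enrichment of at least 5 and −log10 p of at least 10), 5 with peaks under 1 kb apart joined, 1 ranked by −log10 p, 1 with the same number of top peaks, 6 by rank among genes and 0 after centring. For H3K27ac they were 4 as reported, 1 ranked by −log10 p and 7 by rank among genes, and the members higher in GD15M_CM were 3 as reported and 5 ranked by −log10 p. Between the layers, the 3 members for H3K4me3 became 5 by rank among genes. The 2 for H3K27ac became 6 under the strict threshold, 0 ranked by −log10 p and 5 by rank among genes, and the 3 members higher in GD15M_CM became 1 after centring. Centring also changed the split for H3K4me3 against CD15M_CM from 4 higher and 5 lower to 5 and 4. The cause of these shifts was not tested.

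JAK2 and IFNGR2 were lower in GD15M_CM than in GD15M_LM for H3K4me3 by at least 10 points in 8 of 8 alternatives, with ranges of -44.6 to -10 and -38.7 to -14.7. The H3K27ac difference of SOCS1 against CD15M_CM ran from 0 to 64.2. It was 0 under the strict threshold, which leaves no SOCS1 peak in either list, and at least 10 points in 7 of 8. For JAK1 it ran from 9.34 to 80.9. No paired analysis was possible because the gilts were pooled before peak calling, and for the same reason no replicate could be left out. The motif alternative was not run.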

Other observations

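Of 4 interferon genes that could be placed, IFNG, which encodes interferon gamma, had an H3K4me3 peak in GD15M_CM at percentile 46.0 and none in GD15M_LM or CD15M_CM, and IFNE had one at 11.8 in GD15M_CM only. IFNB1 and IFNK had no peak, and no interferon gene had an H3K27ac peak in any list. T cell markers had a median H3K4me3 percentile of 66.8 in GD15M_CM, 59.2 in GD15M_LM and 52.6 in CD15M_CM, and the B cell marker MS4A1 had no peak of either mark.

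The protein-coding genes whose 6 percentiles lay nearest to those of SOCS1, by Euclidean distance in percentile points, were PTRHD1 (8.54), CLUAP1 (8.70) and C6H19orf68 (8.85). Their H3K27ac percentiles in CD15M_CM were 37.5, 37.3 and 29.8, and in GD15M_CM 88.8, 86.5 and 86.7. Endothelium markers had median H3K4me3 percentiles of 61.3, 63.0 and 66.4 in GD15M_CM, GD15M_LM and CD15M_CM, macrophage and B cell markers 54.2, 59.9 and 62.6, and mesothelium markers 51.1, 30.5 and 56.6.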
